A study of Mus musculus with 6 samples.

Results

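Semaphorins, plexins, neuropilins, ephrins and Eph receptors are cell-surface and secreted guidance proteins, and their genes were examined in whole embryonic mouse kidneys with and without the Wnt receptor Fz4. The genes were taken by symbol (Sema3 to Sema7, Plxn, Nrp1, Nrp2, Efna, Efnb, Epha and Ephb) from probe sets annotated to a single gene, and where a gene had several probe sets the brightest on average stood for it. This gave 53 genes of 18193 in all, on 124 probe sets of 45037. They comprised 7 class 3 semaphorins, 13 semaphorins of classes 4 to 7, 2 neuropilins, 10 plexin symbols, 8 ephrins and 13 Eph receptors. One plexin symbol, Plxna4os1, is a noncoding antisense RNA and not a receptor, so 52 of the 53 genes code for protein.

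Kidneys were taken at E13.5, the stage in days of gestation, from mice of a mixed C57BL/6, 129X1/SvJ and 129S1/Sv background, and each genotype had 3 biological replicates on Affymetrix MOE430.2 arrays. The tested genotype was Fz4-/-Fz8-/- (double-null, arrays M1 to M3), and it was compared with Fz4+/+Fz8-/- (Fz8-null, arrays C1 to C3). All 6 arrays therefore lack functional Fz8, and no array represents a kidney wild type for both receptors. By label the compared genotypes differ in Fz4, on an Fz8-null background. Liver transcripts and spike-in controls also differed with genotype, as given below, and their part in the differences was not tested. The labels do not say how many embryos gave RNA to an array or whether litters were shared, and where arrays are not from separate animals the p-values measure only the spread between arrays.

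Semaphorins signal through plexins, and most class 3 semaphorins, which are secreted, also need a neuropilin to bind; semaphorins of classes 4 to 7 stay on the membrane of the cell that makes them or are anchored to it. Ephrins are membrane-bound ligands too. Ephrin-A proteins are held by a lipid anchor and bind mainly EphA receptors, and ephrin-B proteins span the membrane and bind mainly EphB receptors, with signals passing into both cells. In the developing kidney these families are known for restraining ureteric branching (Sema3a), for separating arterial from venous endothelium (Efnb2 and Ephb4) and for nephric duct guidance (Epha4 and Epha7).

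Of the genes whose 2 genotypes did not overlap on the arrays, 4 are shown as examples, 1 with higher and 3 with lower values in double-null kidneys. Each stretch is the 150 bases before the annotated start, 5′ to 3′ on the strand of the gene, from RefSeq on GRCm38.p6. Capitals mark matches to the TCF/LEF motif, the site through which beta-catenin acts at Wnt target genes.
Sema3e (chr5:14025126-14025275, plus strand): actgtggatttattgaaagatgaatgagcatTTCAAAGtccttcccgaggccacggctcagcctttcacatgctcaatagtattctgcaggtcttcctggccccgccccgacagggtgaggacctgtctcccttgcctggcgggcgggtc
Sema4b (chr7:80186720-80186869, plus strand): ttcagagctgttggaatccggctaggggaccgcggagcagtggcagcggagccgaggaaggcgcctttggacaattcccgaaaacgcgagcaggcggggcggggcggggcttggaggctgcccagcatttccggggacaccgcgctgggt
Plxna2 (chr1:194619679-194619828, plus strand): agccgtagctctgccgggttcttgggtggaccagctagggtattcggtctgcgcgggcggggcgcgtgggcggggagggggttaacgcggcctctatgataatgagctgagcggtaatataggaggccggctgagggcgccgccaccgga
Efna2 (chr10:80179332-80179481, plus strand): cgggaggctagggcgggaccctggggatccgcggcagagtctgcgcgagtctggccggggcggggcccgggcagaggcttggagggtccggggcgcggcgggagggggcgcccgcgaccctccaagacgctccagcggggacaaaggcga
The motif was searched on both strands, as CTTTG followed by a pair of bases that are each A or T, in the 250 bases before each start. A promoter was available for 46 of the 53 genes, and 6 of the 46 held a match (13%), against 16.8% of all 27025 genes with a promoter in the table. The 6 were Sema3d, Sema3e, Sema6d, Efna4, Epha2 and Nrp2, and the shown windows of Sema4b, Plxna2 and Efna2 held none. Sema6d, also lower without overlap, held a match and is not shown. Sema4b has a further start in the table, and its first one is shown.

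The arrays bore out the label for Fz4. Fzd4 read 5.29, 4.96 and 3.89 in double-null kidneys and 10.74, 10.86 and 10.93 in Fz8-null kidneys (log2 intensity), and it fell by 6.13 (SE 0.35, limma adjusted p = 0.00318). Fzd8 was near background in both genotypes (3.69 ± 0.18 in double-null and 3.98 ± 0.42 in Fz8-null kidneys, SD, n = 3 each). Kidney markers were present throughout, with Ret, the receptor of the ureteric tip, at 8.25 in double-null and 9.36 in Fz8-null kidneys and Foxd1, of the cortical stroma, at 10.03 and 10.10 in the same order. The 3 double-null arrays were not alike. The control probe set for the B1 repeat read 11.83 and 12.08 in M1 and M2 but 10.85 in M3, against 10.67 to 11.02 in the Fz8-null arrays, and liver transcripts averaged 0.99, 3.67 and 3.98 above the Fz8-null mean in M1, M2 and M3.

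Across the family, all 13 membrane-bound semaphorins had a lower mean in double-null kidneys, where 58.1% of all genes did. In 6 of the 13 every double-null array lay below every Fz8-null array, an arrangement found in 12.2% of all genes. Of the 13, 10 had a mean of at least 6. Among the 11174 genes at that level 7991 were lower, 1816 of them without overlap. With the signal of a B1 repeat control as a covariate, 8 of the 13 were lower and 5 higher. In that fit 9005 of all 18193 genes were lower and 9188 higher. Class 3 semaphorins were split (3 lower, 4 higher), and Sema3e alone among all 53 genes lay higher in every double-null array. No gene passed the threshold of limma with Benjamini-Hochberg adjustment over all 18193 genes (0 of 53, where 0.0275% of all genes passed). At an unadjusted limma p under 0.05, 12 of the 53 lay lower and 1 higher, where 9.23% of all genes were lower and 6.05% higher at that level.

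The median log2 difference over the 53 genes was -0.27, against -0.061 over all genes. Among genes with a mean of at least 6 the medians were -0.33 for 39 members and -0.15 for 11174 genes. Of those 39 members 31 were lower, 10 of them without overlap, against 7991 and 1816 of the 11174 genes. In all, 39 of the 53 (73.6%) had a negative difference, as did 58.1% of all genes, and 14 a positive one, as did 41.9%. No member was removed for a low value, and 14 had a mean under 6, 3 of them under 4. The genotypes did not overlap for 11 members that were lower (20.8%, where 12.2% of all genes were lower without overlap) and for 1 that was higher (1.89%, background 6.68%). Differences ran from -1.0 for Sema6a to 2.06 for Epha5. These are descriptions of the set; no test was made of the set as a whole. Arrays of whole kidney cannot separate fewer cells of a type from less RNA in each cell, for any of these genes.

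**Figure D1:**
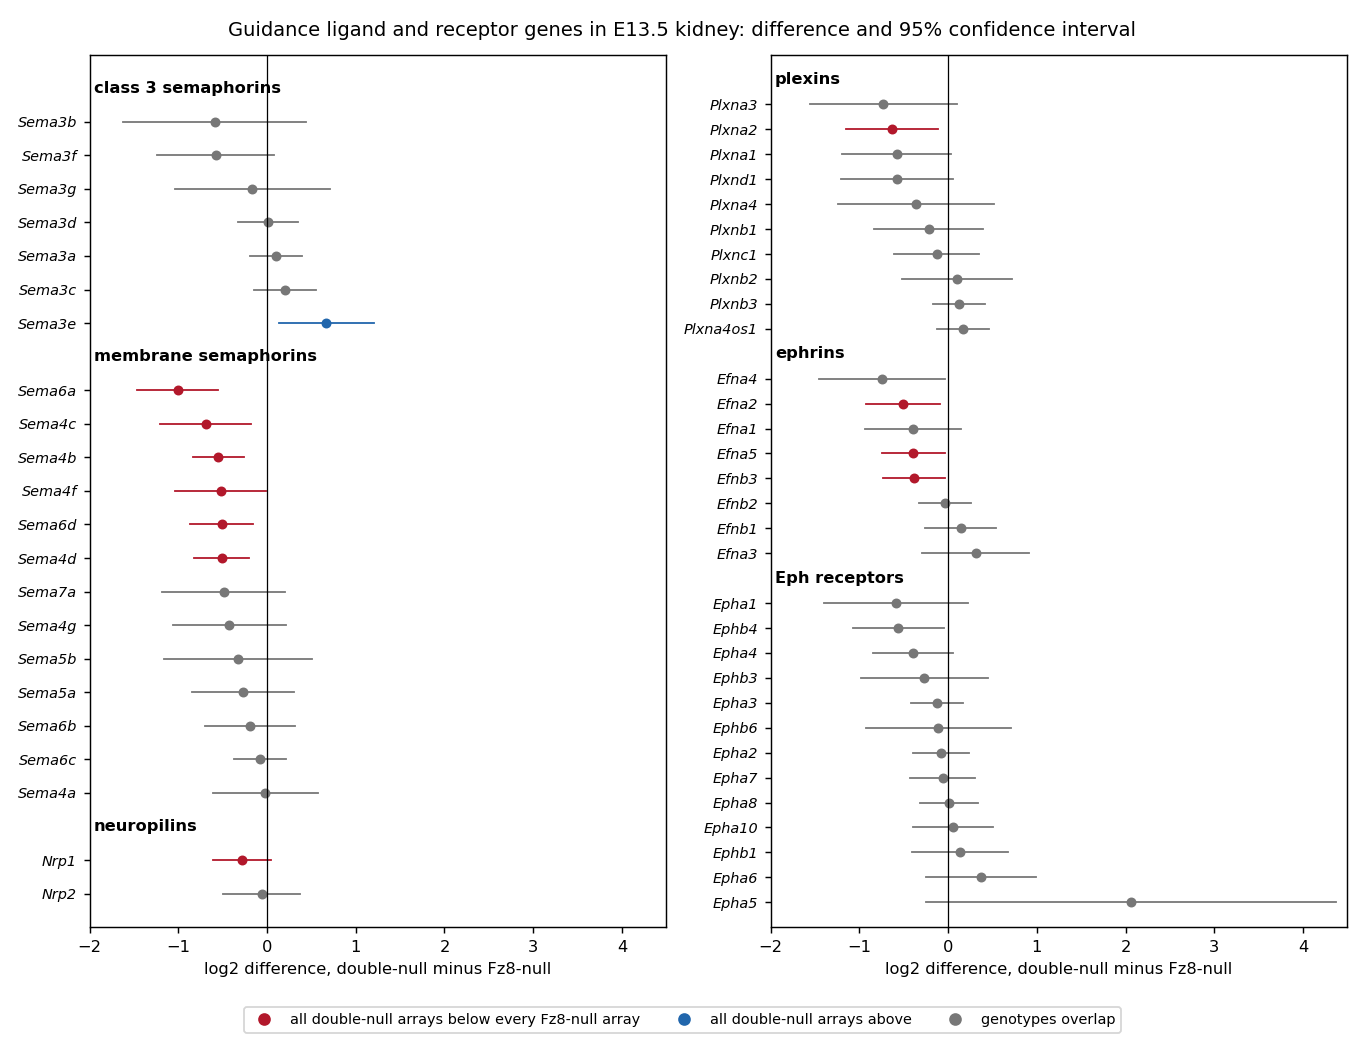
Log2 difference (double-null minus Fz8-null, horizontal axis) of each of the 53 genes, grouped by role, with the 95% confidence interval of limma from 3 arrays per genotype. Red points are the 11 genes whose double-null arrays all lay below every Fz8-null array, blue is Sema3e, and grey genes overlapped; all 13 membrane semaphorins sit left of 0.

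Secreted class 3 semaphorins were spread around no difference, with a median of 0.009. Sema3e, a ligand that binds plexin-D1 directly and repels endothelial sprouts, read 6.98, 6.95 and 6.25 in M1, M2 and M3, against 5.90, 6.01 and 6.25 in C1, C2 and C3. M1 and M2 stood clear of the Fz8-null arrays, whereas M3 and C3 were equal to 2 decimals. The difference was 0.67 (SE 0.23, limma adjusted p = 0.314), and 0.27 (SE 0.23) with the B1 signal as a covariate. The other Sema3e probe sets stood between -0.01 and 0.93, and the one at 0.93 (SE 0.75) had 5.33, 6.83 and 3.52 in double-null arrays and 4.28 to 4.31 in Fz8-null arrays, so that M3 fell on the other side of the Fz8-null arrays.

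Sema3f, the neuropilin-2 ligand, lay low in M1 and M2 alone. It read 6.38, 6.43 and 7.30 in double-null arrays and 7.57, 7.05 and 7.23 in Fz8-null arrays, a difference of -0.58 (SE 0.28, adjusted p = 0.345). Sema3b, a further neuropilin ligand, did likewise, at 6.74, 5.60 and 7.49 in double-null and 7.15, 7.24 and 7.21 in Fz8-null kidneys (difference -0.59, SE 0.43). In both genes M3 was inside or above the Fz8-null range. Sema3a, the ligand of neuropilin-1 known to restrain branching, was level at 8.72, 8.56 and 8.65 in double-null and 8.61, 8.58 and 8.43 in Fz8-null kidneys. Its 95% interval was -0.19 to 0.39, so a 2-fold change (1 on the log2 scale) lies outside it on this probe set. The other Sema3a probe sets stood at -0.25 and 0.49, and the interval of the set at 0.49 was -0.39 to 1.38. Sema3c, a class 3 ligand known from cardiac outflow development, read 10.73, 10.38 and 10.56 in double-null and 10.51, 10.34 and 10.22 in Fz8-null kidneys (interval -0.15 to 0.55). Sema3g (-0.17) and Sema3d (0.01) had intervals across 0. A dimmer Sema3d probe set differed from the representative, however, at 7.08, 6.48 and 5.93 in double-null against 5.57, 5.08 and 5.0 in Fz8-null kidneys. Its groups did not overlap, and it stood at 1.28 (SE 0.32, adjusted p = 0.322 over all probe sets).

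The median difference of the 13 membrane semaphorins was -0.49. Fitted with the B1 covariate their median was -0.14 (8 lower, 5 higher), and that of all genes was 0.0027. Sema6a, a transmembrane ligand of A-type plexins, had the most negative difference of the 53 genes. It read 7.28, 7.16 and 7.34 in double-null kidneys and 7.88, 8.39 and 8.53 in Fz8-null kidneys, which is a difference of -1.0 (SE 0.19, 95% interval -1.46 to -0.55, adjusted p = 0.299). All 3 double-null arrays lay within 0.2 of each other and below C1, the lowest Fz8-null array. The other Sema6a probe sets stood at -0.10 and -0.32, so the size of the difference rests on 1 probe set. Its class mate Sema6d, a ligand of plexin-A1 known from heart morphogenesis, read 8.64, 8.55 and 8.95 in double-null and 9.19, 9.17 and 9.31 in Fz8-null kidneys (difference -0.51, SE 0.15, adjusted p = 0.314). A dimmer Sema6d probe set stood at -0.61 (SE 0.21), also without overlap, while its dimmest sets stood at 0.04 and 0.21. Sema6b (-0.19) and Sema6c (-0.08) were closer to 0.

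In 4 of the 6 class 4 semaphorins the double-null arrays lay below the Fz8-null arrays without overlap, where 12.2% of all genes did so. Sema4b, a transmembrane semaphorin, read 9.23, 9.14 and 9.29 in double-null and 9.77, 9.69 and 9.85 in Fz8-null kidneys. The spread within each genotype was small beside the gap, and the difference was -0.55 (SE 0.12, 95% interval -0.83 to -0.26, limma adjusted p = 0.314). A dimmer Sema4b probe set, with a mean of 4.15, overlapped between genotypes and stood at 0.04 (SE 0.16). Sema4b is the only member on the chromosome of Fzd4 and starts 9.2 Mb from it in GRCm38.p6; with a mixed strain background, alleles linked to the Fz4 mutation and the loss of Fz4 cannot be told apart for it. Sema4d, the ligand of plexin-B1, read 9.58, 9.48 and 9.71 in double-null and 10.01, 10.18 and 10.12 in Fz8-null kidneys (difference -0.51, SE 0.13, adjusted p = 0.314). Its other probe sets averaged under a log2 value of 4, near background, and stood at -0.12 and 0.00. Leukocytes are a known source of Sema4d. Macrophage markers averaged -0.3, 0.85 and 0.72 from the Fz8-null mean in M1, M2 and M3, with 2 of 10 lower and 8 higher. Their part in the Sema4d values was not tested. Sema4c, a plexin-B2 ligand, and Sema4f were named after their values were seen. Sema4c stood at -0.69 (SE 0.22), with 7.89, 7.77 and 8.19 in double-null against 8.25, 8.71 and 8.97 in Fz8-null arrays. Sema4f was dim (4.70 ± 0.15 in double-null and 5.22 ± 0.39 in Fz8-null kidneys, SD, n = 3 each), and its 2 probe sets disagreed in sign (-0.52 and 0.37).

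In 5 other membrane semaphorins M1 and M2 lay below every Fz8-null array while M3 did not. That arrangement was found in 21.9% of all genes, and in 3229 of the 11174 with a mean of at least 6. Sema7a, which is lipid-anchored and binds plexin-C1, read 5.24, 4.91 and 6.08 in double-null and 6.02, 5.79 and 5.89 in Fz8-null kidneys (difference -0.49, SE 0.29, adjusted p = 0.414). Sema4g, Sema5b, Sema6b and Sema4a had the same arrangement, with differences from -0.43 to -0.02. Sema5a (-0.27) was low in M2 alone. Without M2 the count of membrane semaphorins with a lower mean was 12 of 13 and their median was -0.24. The count was also 12 of 13 with quantile normalization or equal array medians. With the B1 covariate it was 8 of 13, where 9005 of all 18193 genes were lower.

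**Figure D2:**
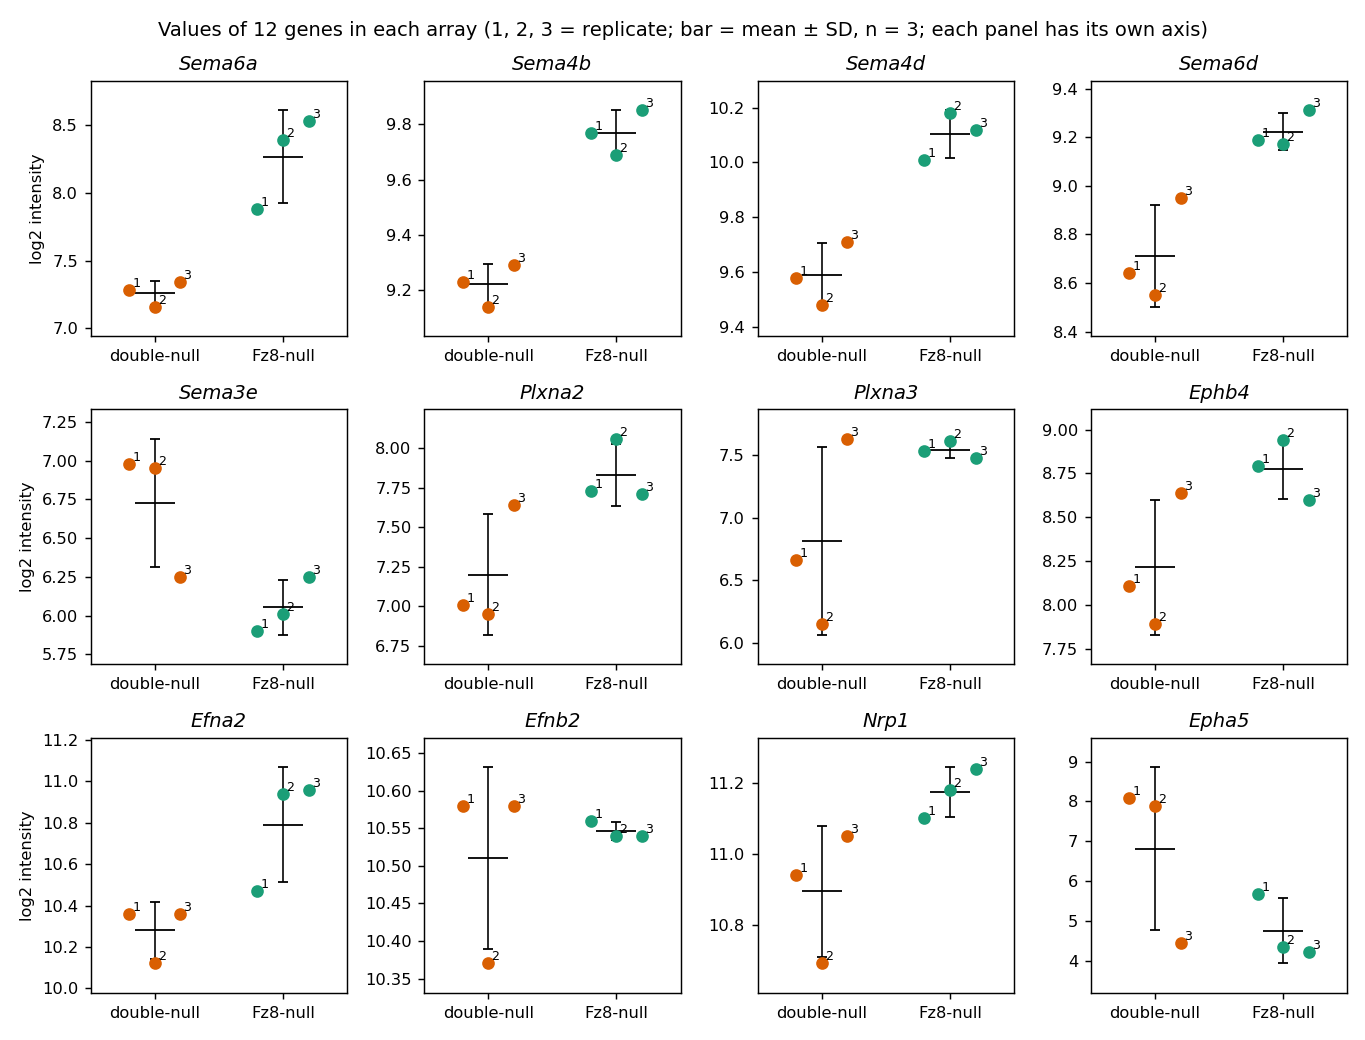
Log2 intensity (vertical axes, a separate range in each panel) of 12 genes in each array, double-null at the left and Fz8-null at the right, with the mean and SD of 3 arrays; digits give the replicate. Sema6a, Sema4b, Sema4d and Sema6d are separated by genotype in all 6 arrays, whereas in Plxna3, Ephb4 and Epha5 replicate 3 of the double-null group lies with the Fz8-null arrays.

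Of the semaphorin receptors, 3 of 10 plexin symbols and 1 of 2 neuropilins were lower in M1 and M2 alone. Such an arrangement was found in 21.9% of all genes, and in 3229 of the 11174 with a mean of at least 6. Of the neuropilins, Nrp1, a coreceptor for class 3 semaphorins and for VEGF, read 10.94, 10.69 and 11.05 in double-null and 11.10, 11.18 and 11.24 in Fz8-null kidneys. The genotypes did not overlap, but the difference was small (-0.28, SE 0.14, adjusted p = 0.357), and the other Nrp1 probe sets stood between -0.12 and 0.02. Nrp2, the coreceptor for Sema3f, read 8.83, 8.48 and 9.15 in double-null and 8.91, 8.86 and 8.88 in Fz8-null kidneys, with a 95% interval of -0.50 to 0.37. Its other probe sets were dimmer and stood at 0.5, -0.24 and 0.17. The set at 0.5 (SE 0.21) read 6.34, 6.43 and 6.06 in double-null and 5.63, 5.54 and 6.17 in Fz8-null arrays.

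The 4 A-type plexins, which transmit class 3 and class 6 signals, all had a negative difference, with a median of -0.61. On representative probe sets Plxna2 was the only plexin without overlap. It read 7.01, 6.95 and 7.64 in double-null and 7.73, 8.06 and 7.71 in Fz8-null kidneys (difference -0.63, SE 0.22, limma adjusted p = 0.314). M3 lay only just below C3, however. The other Plxna2 probe sets ranged from -0.12 to 0.56. Plxna3, named after its values were seen, read 6.66 and 6.15 in M1 and M2 but 7.63 in M3, against 7.53, 7.61 and 7.48 in Fz8-null kidneys. M3 was thus the highest of all 6 arrays for Plxna3. In a dimmer probe set of that gene M1 and M2 were low as well, with 4.08, 4.08 and 5.77 in double-null and 5.72, 6.04 and 5.85 in Fz8-null arrays. Plxna1 read 9.09, 8.50 and 9.53 in double-null and 9.71, 9.66 and 9.49 in Fz8-null kidneys (difference -0.58, SE 0.26, limma adjusted p = 0.333). A dimmer Plxna1 probe set separated the genotypes, at 5.21, 5.24 and 5.55 in double-null and 5.88, 5.72 and 5.74 in Fz8-null arrays. That set stood at -0.45 (SE 0.15). Plxna4 was dim and uneven, at 4.80, 4.53 and 4.62 in double-null and 4.11, 5.35 and 5.58 in Fz8-null kidneys. The antisense Plxna4os1 was near background at 3.31 in double-null and 3.14 in Fz8-null kidneys.

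Plxnd1, the Sema3e receptor of endothelium, read 7.97, 7.29 and 8.35 in double-null and 8.48, 8.56 and 8.30 in Fz8-null kidneys (difference -0.58, SE 0.27, adjusted p = 0.340). Only M1 and M2 were below the Fz8-null arrays. Among B-type plexins, receptors of class 4 semaphorins, Plxnb1 read 8.39, 7.83 and 8.76 in double-null and 8.79, 8.50 and 8.34 in Fz8-null kidneys (difference -0.22, SE 0.26), and Plxnb2, which is known in kidney epithelium, 9.96, 9.69 and 10.49 in double-null and 10.34, 9.85 and 9.67 in Fz8-null kidneys (0.10, SE 0.26). Plxnc1, the Sema7a receptor, read 7.34, 7.48 and 7.52 in double-null and 7.18, 7.61 and 7.93 in Fz8-null kidneys. For these 3 receptors the genotypes overlapped. Plxnb3 (0.12) was close to background.

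Of the 8 ephrin genes 6 had a negative difference, 3 of them without overlap. Over all genes 58.1% were lower and 12.2% lower without overlap. All 8 had a mean of at least 6. Of the 11174 genes at that level 7991 were lower, 1816 of them without overlap. With the B1 covariate 4 ephrin genes were lower and 4 higher, as were 9005 and 9188 of all 18193 genes. Efna2, a ligand of EphA receptors, read 10.36, 10.12 and 10.36 in double-null and 10.47, 10.94 and 10.96 in Fz8-null kidneys (difference -0.51, SE 0.18, adjusted p = 0.314). Its other probe set also separated the genotypes, at 6.51, 6.64 and 7.37 in double-null against 7.44, 7.90 and 7.61 in Fz8-null kidneys. Efna5, which repels axons bearing EphA receptors, read 9.09, 9.51 and 9.31 in double-null and 9.63, 9.73 and 9.72 in Fz8-null kidneys (difference -0.39, SE 0.15, adjusted p = 0.317). Efnb3, a transmembrane ephrin known from the neural midline, read 7.43, 7.54 and 7.81 in double-null and 7.90, 7.97 and 8.06 in Fz8-null kidneys (difference -0.38, SE 0.15, adjusted p = 0.318). In each of these 3 genes the highest double-null array stayed below the lowest Fz8-null array, by about 0.1 log2 units. Efna4 (-0.74, SE 0.30) and Efna1 (-0.40, SE 0.23) were lower in M1 and M2 alone, with Efna1 at 8.19, 8.17 and 8.96 in double-null and 8.73, 8.91 and 8.87 in Fz8-null kidneys.

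Efnb2, the transmembrane ephrin of arterial endothelium, was level on its representative probe set, at 10.58, 10.37 and 10.58 in double-null and 10.56, 10.54 and 10.54 in Fz8-null kidneys. The difference was -0.04 (SE 0.12) with a 95% interval of -0.33 to 0.26. The other Efnb2 probe sets ranged from -0.82 to -0.21, so the probe sets did not give the same size. Efnb1, a transmembrane ephrin (0.14), and Efna3 (0.31) overlapped between genotypes.

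Eph receptors had no common direction, with 8 of 13 lower, 5 higher and a median of -0.076, and in none of the 13 were the genotypes separated. Ephb4, the venous partner of Efnb2, read 8.11, 7.89 and 8.64 in double-null and 8.79, 8.94 and 8.60 in Fz8-null kidneys (difference -0.56, SE 0.22, adjusted p = 0.318). M3 overlapped C3. Epha4, a receptor that binds ephrins of both classes, read 10.11, 9.97 and 10.14 in double-null and 10.10, 10.56 and 10.76 in Fz8-null kidneys (difference -0.40, SE 0.19, adjusted p = 0.349), where C1 lay with the double-null arrays. All 5 Epha4 probe sets were lower, between -0.80 and -0.21. On each of the dimmer sets M1 and M2 lay below every Fz8-null array while M3 did not. Epha2, an epithelial receptor that binds Efna1, was flat at 5.87, 5.77 and 6.07 in double-null and 5.92, 6.04 and 5.98 in Fz8-null kidneys (95% interval -0.39 to 0.24), and Epha7, expressed in the nephric duct, stood at -0.06 with an interval of -0.43 to 0.30.

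Epha5, a receptor best known from the nervous system, had the most positive difference of the 53 genes. It read 8.09 and 7.89 in M1 and M2 but 4.45 in M3, against 5.69, 4.35 and 4.21 in Fz8-null kidneys. M1 and M2 thus stood more than 2 log2 units above every other array, and M3 was near the lower end of the Fz8-null range. The mean difference of 2.06 (SE 0.98, adjusted p = 0.344) therefore rests on M1 and M2, and it was -0.40 (SE 0.38) with the B1 signal as a covariate. The other 3 Epha5 probe sets were dim and had their highest values in M1 and M2 as well, with 4.81, 4.85 and 3.98 in double-null and 3.98, 4.07 and 3.31 in Fz8-null arrays on the brightest of them. A dimmer Epha3 probe set had the same arrangement, at 5.68, 5.68 and 4.28 in double-null and 4.51, 3.90 and 4.28 in Fz8-null arrays. Neuron and neural crest markers averaged -0.037, 0.51 and 0.30 from the Fz8-null mean in M1, M2 and M3, with 8 of 10 higher and 2 lower, and their part in the Epha5 values was not tested. On their representative probe sets Epha1, Ephb3 and Ephb6 were lower in M1 and M2 only (-0.59, -0.27 and -0.11). A further Epha1 probe set was higher in M1 and M2 only (0.27, SE 0.2). It read 5.97, 6.05 and 5.45 in double-null and 5.35, 5.71 and 5.61 in Fz8-null arrays. The dimmest Epha1 set stood at -0.2. Epha6, Epha8 and Epha10 lay near background, between 0.01 and 0.37, and Epha3 (-0.12) and Ephb1 (0.13) overlapped.

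The dependence on array was measured over the whole family. In 18 of the 53 genes (34%) M1 and M2 lay below every Fz8-null array while M3 did not, an arrangement found in 21.9% of all genes. Among genes with a mean of at least 6 it was found in 13 of 39 members and 3229 of 11174 genes. In 2 genes, Epha5 and Plxna4os1, M1 and M2 alone were higher (3.77%, background 12.6%). The median deviation of the 53 genes from the Fz8-null mean stood at -0.24 for M1, -0.48 for M2 and 0.003 for M3, and that of all genes at -0.077, -0.11 and 0.008. M2 held the lowest value of the 6 arrays for 30 members (56.6%, against 33.2% of all genes). M1 and M2 were also the arrays with the high B1 repeat signal. With that signal as a covariate the median over the 53 genes was 0.00084, with 26 lower and 27 higher. Over all 18193 genes it was 0.0027, with 9005 lower and 9188 higher. Of the 53, 32 had a smaller absolute difference than without the covariate, and none passed the threshold. Several genes kept much of their difference in that fit, among them Sema6a at -0.82 (SE 0.25), Sema4b at -0.48 (SE 0.16), Efna5 at -0.41 (SE 0.20) and Sema4d at -0.36 (SE 0.16), whereas Plxna3 stood at 0.11 (SE 0.21) and Ephb4 at -0.13 (SE 0.19). The part of the B1 signal in these differences was not tested beyond that fit.

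**Figure D3:**
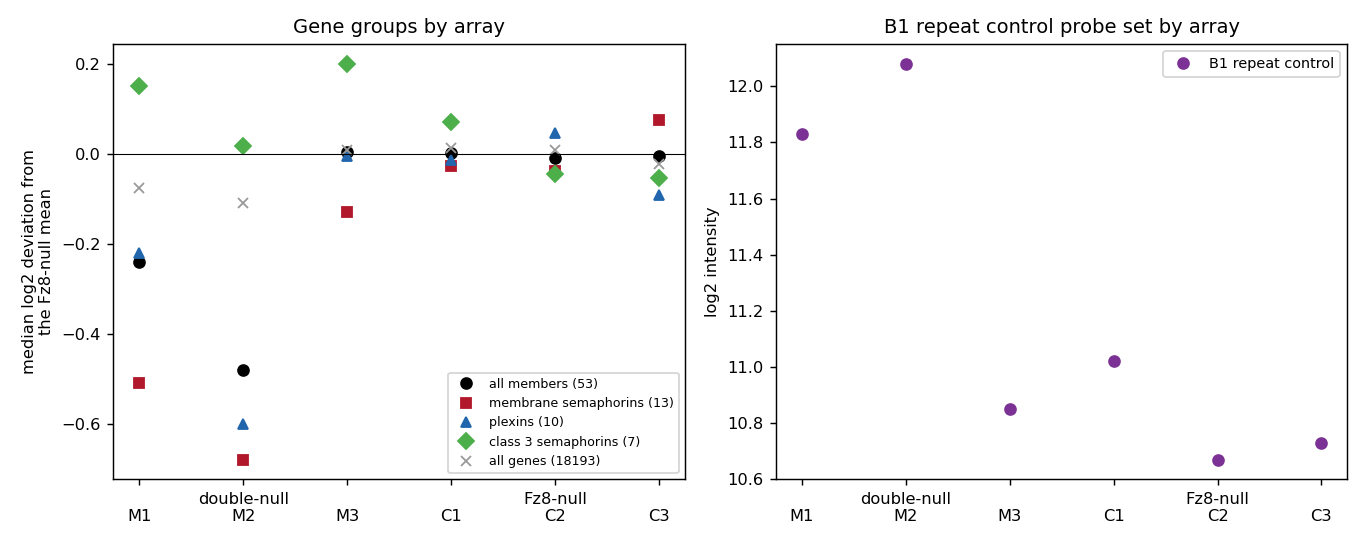
Left, median log2 deviation from the Fz8-null mean in each array (double-null arrays M1 to M3, then Fz8-null C1 to C3) for all 53 members, 3 of their role groups and all 18193 genes. Right, log2 intensity of the B1 repeat control; M1 (11.83) and M2 (12.08) are above the other 4 arrays, and the median of the 53 genes is lowest in the same arrays (-0.24 and -0.48).

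Leaving out M3 changed the outcome of the test: 18 of the 53 genes then passed (16 lower, 2 higher), where 18.1% of all genes did. Those highest in fold were Epha5 at 3.24 (adjusted p = 0.00808), Plxna3 at -1.14 (0.0123), Efna4 at -1.06 (0.0196) and Sema6a at -1.04 (0.0234). With array weights, which gave M3 0.2109 and M1 3.926, 26 passed (21 lower, 5 higher) and included the same 18, where 41.6% of all genes passed. In both fits the share of all genes passing was large as well, and the count of members is to be read against it. No member passed in any other fit tried, in which the shares of all genes that passed were 0.214% without M1, 0.022% without M2, 0.0165% without C1 or without C2, 0.011% without C3, 0.0626% with a minimum mean of 6, 0.022% with quantile normalization, 0.0385% with equal array medians, 0.0275% with trend and robust settings, 0.0165% with replicate number as a block, 0.0055% with the mean of a gene's probe sets, 0.0165% with the B1 covariate and 0.0605% at an adjusted p of 0.1.

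Ligand and receptor genes that are known to act as pairs were set side by side, without a test of the pair. Sema3e stood at 0.67 and Plxnd1 at -0.58, opposite in sign and the furthest apart of the 9 pairs, though M3 was level with the Fz8-null arrays for both genes. Sema6d (-0.51) and Plxna1 (-0.58), Sema6a (-1.0) and Plxna4 (-0.36), and Sema4d (-0.51) and Plxnb1 (-0.22) were negative on both sides. On representative probe sets these ligands separated the genotypes and these receptors did not, but a dimmer Plxna1 probe set did. Efnb2 (-0.04) was level where Ephb4 was at -0.56, and Efna1 (-0.40) was lower where Epha2 was at -0.08. The remaining pairs were Sema3a (0.10) with Nrp1 (-0.28), Sema3f (-0.58) with Nrp2 (-0.06) and Sema7a (-0.49) with Plxnc1 (-0.13).

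**Figure D4:**
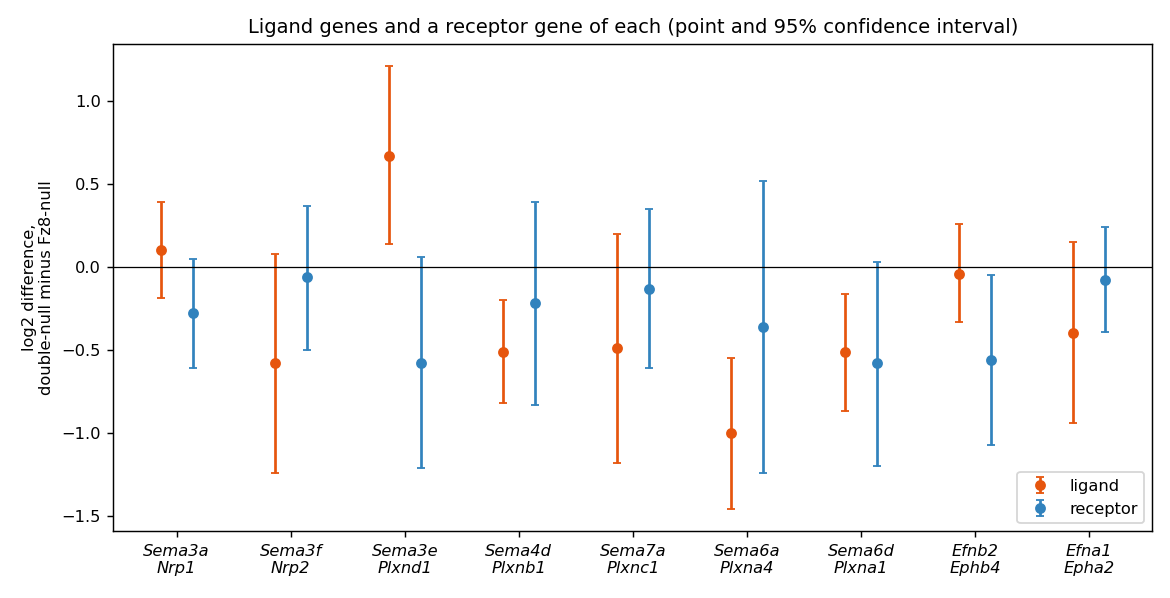
Log2 difference (double-null minus Fz8-null, vertical axis) of 9 ligand genes (orange) and a known receptor gene of each (blue), with 95% confidence intervals of limma from 3 arrays per genotype. The intervals of Sema4d, Sema6a, Sema6d and Ephb4 lie below 0 and that of Sema3e above 0 before adjustment for all genes; the others cross 0.

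Intracellular effectors of these receptors were taken from a separate list (adaptors such as Grb2, exchange factors such as Farp1 and Farp2, Mical enzymes and collapsin response mediators, among others), of which 49 of 52 genes were measured. None passed the threshold (0 of 49). The median difference was -0.19, with 37 lower and 12 higher, and the genotypes did not overlap for 10 lower and 2 higher genes, where 12.2% and 6.68% of all genes did so. Of the 49, 47 had a mean of at least 6. Among the 11174 genes at that level 7991 were lower, 1816 of them without overlap, and 344 were higher without overlap. The genes of smallest p were Mical3, one of the Mical enzymes, and Sipa1l1, a GTPase-activating protein linked to EphA4. Mical3 read 9.97, 9.75 and 9.99 in double-null and 10.19, 10.84 and 10.71 in Fz8-null kidneys (difference -0.68, SE 0.20, limma adjusted p = 0.314). Sipa1l1 read 9.73, 9.24 and 9.58 in double-null and 9.88, 10.12 and 10.26 in Fz8-null kidneys (difference -0.57, SE 0.18, limma adjusted p = 0.314). In both genes the double-null arrays lay below all Fz8-null arrays.

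Some of these genes are made mainly by particular cells, and markers of those cells were read on the same arrays. Endothelial markers, beside Nrp1, Plxnd1 and Ephb4, had a mean log2 level of 8.29, 7.86 and 8.52 in M1, M2 and M3, against 8.52 to 8.62 in Fz8-null arrays. Of 20 markers 16 were lower, and Cdh5 stood at 7.57 in double-null and 7.98 in Fz8-null kidneys, so the cells were represented in both genotypes. On that average M1 and M2 were low and M3 was level, but single endothelial markers varied. Of the 20, 6 were lower without overlap and 0 higher without overlap. Another 4 were lower in M1 and M2 alone, which was the arrangement of Plxnd1 and Ephb4. All 20 had a mean of at least 6. Of the 11174 genes at that level 7991 were lower, 1816 of them without overlap, and 344 were higher without overlap. The arrangement with M1 and M2 alone lower was found in 3229 of the 11174. Ureteric tip markers averaged 7.61, 7.33 and 7.73 in double-null against 8.35 to 8.46 in Fz8-null arrays (8 of 9 lower), and nephron progenitor markers 8.64, 8.56 and 8.90 against 9.36 to 9.39 (10 of 10 lower). Both lists were low in all 3 double-null arrays, as were Sema6a, Sema4b, Sema4d and Sema6d. Stroma markers averaged 9.57, 9.14 and 9.69 in double-null against 9.20 to 9.29 in Fz8-null arrays (5 of 10 lower). The part of cell composition in the differences of the guidance genes was not tested.

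Probe sets of a gene did not always give the same direction. Of the 36 members with more than 1 probe set, 18 had all of them on 1 side of 0 (15 lower, 3 higher), and 18 had probe sets on both sides. Over the 124 probe sets 83 were lower and 41 higher, none passed over all probe sets (0 of 124), and the genotypes did not overlap for 16 that were lower and 2 that were higher, where 11.3% and 7.35% of all probe sets did so. The 15 with every probe set lower included Efna2, Epha4, Plxna1, Plxna3 and Efnb2.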

How the data were processed

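RNA of whole mouse kidneys at E13.5 was measured on 6 arrays, labelled from 100 ng of total RNA. The values deposited by the authors are log2 probe-set intensities normalized with RMA, per the submitters' processing notes (version not given in the sources used here); they were used as they were. Of 45101 probe sets, 64 controls were set aside; 34945 had 1 gene, 932 several and 9160 none. Array medians ran from 6.02 to 6.14. Precision is limited by the number of arrays, and for dim probe sets also by background.

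The genotypes were compared with limma 3.58.1 under R 4.3.3 (lmFit, eBayes, two-sided), with Benjamini-Hochberg adjustment over 18193 genes, or 45037 probe sets for single probe sets, and a threshold of 0.05. Differences are double-null minus Fz8-null, SE is the moderated standard error and intervals are 95%. Genes given with every array were, in each role group, the 3 of smallest p and the brightest, both neuropilins, members of 9 ligand-receptor pairs, and any past the threshold; single probe sets named beside them were chosen after their values were seen. The members and lists were chosen with earlier results of these data known. Alternatives were a minimum mean of 6, quantile normalization, equal medians, trend and robust eBayes, array weights, replicate block, each array left out, the mean of a gene's probe sets, the B1 covariate and an adjusted p of 0.1.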

Additional observations from a re-analysis of the deposited data

Results flagged for a closer look

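Outside the genes examined, 2 control probe sets for 18S ribosomal RNA were higher in every double-null array than in any Fz8-null array. The 3' probe set read 9.16, 9.64 and 9.25 in double-null and 8.14, 7.32 and 7.4 in Fz8-null kidneys, a difference of 1.73. The 5' probe set read 9.88, 10.56 and 9.86 in double-null and 8.53, 7.59 and 7.84 in Fz8-null kidneys, a difference of 2.11. The middle probe set of the same RNA stood at -0.09. The 10 probe sets of the bioB and bioC spike-in controls were likewise higher in every double-null array, by 0.68 to 0.86. Their bearing on the guidance genes was not tested.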

How the results depend on the processing

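The count of 0 members past the threshold was also 0 with a minimum mean of 6, either scaling, trend and robust eBayes, the mean of a gene's probe sets, the B1 covariate and an adjusted p of 0.1. It was 26 with array weights, and 0 to 18 over the fits that left out 1 array, with 18 only without M3. For the 49 effector genes it was 19 with array weights, where 41.6% of all genes passed, and 0 to 5 with 1 array left out, the 5 again without M3, where 18.1% of all genes passed. The median of the members was -0.27 as measured and -0.099 to -0.42 with 1 array left out (-0.099 without M2, -0.42 without M3). It was -0.16 with quantile normalization, -0.21 with equal array medians, -0.17 with the mean of a gene's probe sets and -0.33 with a minimum mean of 6. With the B1 covariate it was 0.00084, and that of all genes was 0.0027. Members lower without overlap numbered 11 as measured and 11 to 29 with 1 array left out (29 without M3, 17 without C1). They numbered 10 with quantile normalization or equal array medians, and 9 with the mean of a gene's probe sets. Those higher numbered 1 as measured and 2 to 6 with 1 array left out (6 without C1, 4 without M2). They numbered 2 with quantile normalization, 3 with equal array medians and 1 with the mean of a gene's probe sets. With fewer arrays such counts rise by construction. Of 28 members given with every array, 18 kept their sign in every alternative run for them (14 in all, or 13 for 4 members with a mean under 6). Sign changes, none in a called gene, were Nrp2 (0.06 with quantile normalization, -0.23 to 0.1 with 1 array left out, 0.1 without M2, 0.091 with the mean of its probe sets), Plxnc1 (0.0018 with quantile normalization, -0.33 to 0.048 with 1 array left out, 0.048 without C3), Efnb2 (0.035 with quantile normalization, 0.019 with equal medians, 0.014 with array weights, -0.073 to 0.034 with 1 array left out, 0.034 without M2), Plxnb1 (-0.44 to 0.029, 0.029 without M2) and Plxnb2 (-0.13 to 0.29, -0.13 without M3, -0.048 without C3). With the B1 covariate they were Sema3b (0.37), Sema7a (0.14), Nrp2 (0.28), Plxnb1 (0.19), Plxnc1 (0.023), Efna1 (0.12), Efnb2 (0.05), Epha5 (-0.40) and Epha2 (0.11). The cause was not tested. Replicate number as a block left 0 members past the threshold and the median at -0.27; same-numbered arrays correlated at 0.17, -0.14 and 0.09, and not every array correlated best with its own number, so the numbers were not taken as pairs. Dim probe sets, near a log2 value of 4, bound what can be seen.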
